A study of Homo sapiens with 18 samples.

Results

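The data described here are the DRIP–seq regions of A3B KO cells set against those of WT cells, both kept in DMSO, at places other than gene promoters. The cells are MCF10A, a non-transformed human mammary epithelial line. DRIP–seq pulls down sheared DNA with S9.6, an antibody that binds RNA–DNA hybrids, and sequences it beside an input. The A3B KO line (APOBEC3B removed) was cut with a Cas9 guide that matches both APOBEC3A and APOBEC3B, which deletes the stretch between the cut sites and joins the genes, and it was grown from a single cell, so that the genotype and the clone cannot be told apart. DMSO was the vehicle for PMA, a phorbol ester that activates protein kinase C. Lists of the same lines at 25 ng/ml PMA for 2 h and 6 h, 4 in all, stand beside the DMSO lists. Anti-GFP lists of another MCF10A line, which makes A3B-eGFP when given doxycycline, were used for overlap. They were made with and without doxycycline.

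Each line had 1 library per treatment, made by pooling several pull-downs, and the deposited list of each library holds a window of 500 bp around every summit. With 1 library there is no spread between replicates, so no p-value and no SD are given, and every interval covers counting error alone. The KO list held 98432 regions and the WT list 91894 on the autosomes and X. The longer list was shortened to its strongest 91894 regions by fold enrichment over local background, so that lists of equal length were compared. Of these, 79991 KO regions and 79659 WT regions lay beyond promoters, that is more than 2 kb from the start of every protein-coding or long noncoding RNA gene, out of 757528 regions in the 6 DRIP–seq lists. Read totals were not used here. The kept regions had a median fold enrichment of 4.43 in KO and 4.32 in WT, and the median pileup at the summit (the fragments or extended reads counted over the base) was 21 in both lists. The lowest fold kept was 2.79 in KO and 1.48 in WT.

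R-loops are structures in which an RNA pairs with its template DNA strand and leaves the other strand single. They form mainly where RNA polymerase is at work, often at gene starts and past gene ends, and G-rich RNA and runs of purines in the RNA favor stable hybrids. The unpaired strand is a possible substrate for APOBEC3B, which deaminates cytosine in single-stranded DNA. RNase H enzymes and helicases remove R-loops. The comparison asks whether loss of A3B changes where hybrids are found in unstimulated cells, here along gene bodies, at gene ends and between genes. A stronger summit in a bulk library can come from more cells with a hybrid or from more hybrid per cell, and these cannot be told apart.

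Stretches that the results on gene ends and on summits at the same place turn on are printed first, each 300 bases long around a summit, read from hg38 on the strand given. None of the printed windows overlaps an annotated exon. The capitals mark runs of at least 3 G or 3 C. ID1 lies past the gene end at chr20:31607277-31607576, + strand, and had the largest gain at a gene end. SUCLG1 lies past the gene end at chr2:84422199-84422498, - strand, and had the largest loss at a gene end. PXYLP1 is in an intron at chr3:141311272-141311571, + strand, and had the same summit in both lists with a lower place in KO.
ID1: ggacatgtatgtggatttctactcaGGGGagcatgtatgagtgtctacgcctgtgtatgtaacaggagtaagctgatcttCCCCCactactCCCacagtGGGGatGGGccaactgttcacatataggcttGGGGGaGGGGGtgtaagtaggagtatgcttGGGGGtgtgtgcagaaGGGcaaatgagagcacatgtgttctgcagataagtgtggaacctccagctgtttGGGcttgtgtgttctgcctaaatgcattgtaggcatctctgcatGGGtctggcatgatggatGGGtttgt
SUCLG1: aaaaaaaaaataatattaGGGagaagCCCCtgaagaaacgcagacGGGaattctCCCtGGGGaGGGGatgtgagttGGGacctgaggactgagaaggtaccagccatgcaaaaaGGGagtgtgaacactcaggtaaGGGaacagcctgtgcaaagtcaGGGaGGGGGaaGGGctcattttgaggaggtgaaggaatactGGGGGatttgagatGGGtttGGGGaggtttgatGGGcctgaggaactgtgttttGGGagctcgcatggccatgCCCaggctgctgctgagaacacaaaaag
PXYLP1: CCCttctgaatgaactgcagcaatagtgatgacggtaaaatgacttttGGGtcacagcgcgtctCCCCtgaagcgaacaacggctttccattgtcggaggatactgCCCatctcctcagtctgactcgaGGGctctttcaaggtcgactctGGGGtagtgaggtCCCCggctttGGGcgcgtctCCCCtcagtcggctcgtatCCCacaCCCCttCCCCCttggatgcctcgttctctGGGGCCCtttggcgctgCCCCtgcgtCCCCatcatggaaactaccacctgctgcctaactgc

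The targeted locus was looked at first, as a check of the labels. Between the end of APOBEC3A and the end of APOBEC3B (chr22:38963185-38992804), the KO lists held 0 regions in DMSO, 0 at 2 h of PMA and 0 at 6 h, and the WT lists held 4, 5 and 10. The 100 kb on each side of this stretch held 30 regions in KO against 25 in WT in DMSO, 27 against 28 at 2 h and 35 against 29 at 6 h. The flanks held regions in each list, and the stretch itself held none in KO. The WT regions in DMSO were weak, the strongest at a fold of 4.25 with a pileup of 18. APOBEC3A itself, which ends where this stretch begins, had 2 regions in each DMSO list, with a highest fold of 3.85 in KO and 3.70 in WT. The guide matches both genes and the cut sites were not mapped here, so the stretch need not equal the deleted part. APOBEC3B itself had 0 regions beyond its promoter in either DMSO list, and the 4 WT regions lay between the genes. Among the neighbors, which like A3B deaminate cytosine, APOBEC3C had 2 regions in KO and 0 in WT, APOBEC3D had 1 in each, APOBEC3F had 3 in KO and 5 in WT, and APOBEC3G and APOBEC3H had 0 in both.

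The labelled cell type was set against its markers. Of 18 basal epithelial marker genes, 16 had a region beyond promoters in either list, and of 10 immune cell marker genes 3 had one. Of 12 luminal epithelial marker genes 7 had one, and of 14 mesenchymal marker genes 8. Over all protein-coding genes, 13316 of 19970 had one. A region is no measure of RNA level, and a gene can pass with a weak window.

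Beyond promoters, the KO and WT lists were alike in where their regions lay and about equally unlike in which regions they held. Gene bodies held 48675 KO and 48676 WT regions, gene ends (within 2 kb of the last base of a gene) held 7487 and 7840, and the space outside genes held 23829 and 23143. Of the KO regions beyond promoters 54.7% overlapped a WT region, and of the WT regions 54.99% overlapped a KO region, leaving 36247 regions in KO alone and 35856 in WT alone. The shared part was 53.7% of KO and 53.7% of WT regions in gene bodies, 66.0% of KO and 63.2% of WT regions at gene ends, and 53.1% of KO regions outside genes, against 12729 of 23143 WT regions there. Promoters stood at 70.4% in KO and 68.8% in WT.

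**Figure D1:**
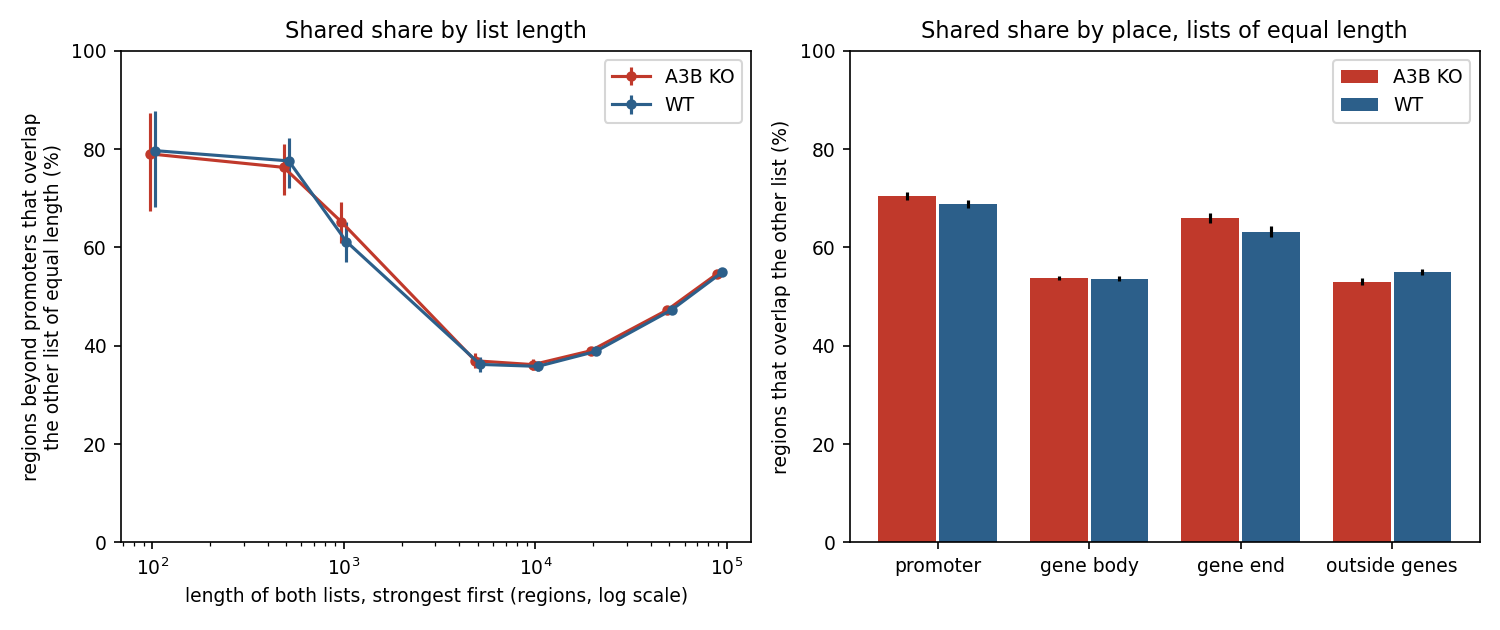
Left, the percentage of regions beyond promoters that overlap a region of the other list when both lists are shortened to the same number of strongest regions (log axis), with Wilson 95% intervals. Right, the same percentage by place at 91894 regions per list. The share starts near 79% in both lists, is lowest near 36% at 10000 regions, and is higher at promoters and gene ends than in gene bodies or outside genes.

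The strongest regions were the most alike. Among the first 100 entries of each list, 62 KO and 64 WT regions lay beyond promoters, and 79.0% of the KO ones (Wilson 95% interval 67.4% to 87.3%) and 79.7% of the WT ones (68.3% to 87.7%) were shared. At 1000 entries the share was 65.2% in KO and 61.2% in WT, and at 10000 entries it was 36.2% in KO and 35.8% in WT. Most regions absent from the other short list were further down the other list, since 95.2% of the KO and 94.0% of the WT regions within the first 1000 overlapped a region somewhere in the whole other list. The regions in 1 list alone were weak as a set, with a median fold of 4.14 in KO and 3.95 in WT, against 4.63 (KO values) and 4.67 (WT values) for the shared ones. The PMA libraries were searched for the same places. Of the regions in KO alone, 40.1% overlapped the KO list and 39.2% the WT list at 2 h of PMA. Of the regions in WT alone the shares were 39.9% in KO and 41.1% in WT at 2 h, and of the shared regions they were 76.5% and 76.4%. The shares of regions of KO alone in the KO list and in the WT list at 2 h thus lay within 1 percentage point.

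The genes with the strongest summits beyond promoters were largely the same in both lines. Each gene with a region beyond promoters in both lists was ranked among those genes, within each list, by its highest one. The log2 rank ratio, the log2 of the WT rank over the KO rank, is above 0 for a higher place in KO. The genes given for this, those highest in both lists, were chosen by their values. KRT81 and KRT86, overlapping hair keratin genes that share the region, ranked 3 in KO and 1 in WT. EEF1A1, the translation elongation factor that brings tRNA to the ribosome, ranked 2 in KO and 8 in WT, and ACTB, cytoplasmic beta-actin, ranked 10 in both. MYC, a transcription factor gene, ranked 12 in KO and 14 in WT with a summit near its 3′ part. The summits in EEF1A1 and the RNA host gene SNHG3 lay 153 and 69 bp in KO from the start of another annotated transcript of some gene, so that "beyond promoters" here means beyond the outermost start of a gene.

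LRP1B, a very long gene for a lipoprotein receptor at a common fragile site, and ARHGEF18, a guanine nucleotide exchange factor gene, held strong regions away from annotated transcript starts, LRP1B much farther than ARHGEF18. LRP1B had a fold of 56.8 in KO and 49.0 in WT, a pileup of 223 in KO and 218 in WT, and a rank of 9 in KO and 11 in WT. Its summit was 266028 bp from the nearest transcript start in KO and sits on an unbroken run of 166 purines on the gene strand. ARHGEF18 had a fold of 34.9 in KO and 29.9 in WT at a run of 248 bases, 6464 bp from the nearest transcript start in KO. The highest LRP1B region after PMA had a fold of 80.04 in KO and 61.1 in WT at 2 h, and of 38.6 in KO and 59.1 in WT at 6 h, so that the order of the lines turned between the times.

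Over the genes ranked in both lists (13921), 2153 had a log2 rank ratio of at least 1, which is 15.5%, and 2105 had a ratio of at most -1, which is 15.1%. These shares were close to equal, and the median ratio was 0.00. The same genes were ranked in each list, so places gained are offset by places lost. The balance follows largely from this and is no result about the lines. A further 2331 genes had a region in KO alone and 2129 in WT alone. Much of the reordering was between different summits: in 5988 genes (43.0%) the highest regions of the lists overlapped, among them 905 of the genes higher and 890 of those lower in KO. Exact Poisson 95% intervals of the summit pileups did not overlap in 223 genes, of which 70 were higher and 127 lower in KO by rank. The share past a ratio of 1 grew with gene length, with 11.8% higher and 10.1% lower in KO for genes under 10 kb and 20.7% higher and 18.4% lower for genes over 200 kb. Among the 1521 genes within rank 1000 in either list, 555 were higher and 550 lower in KO.

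**Figure D2:**
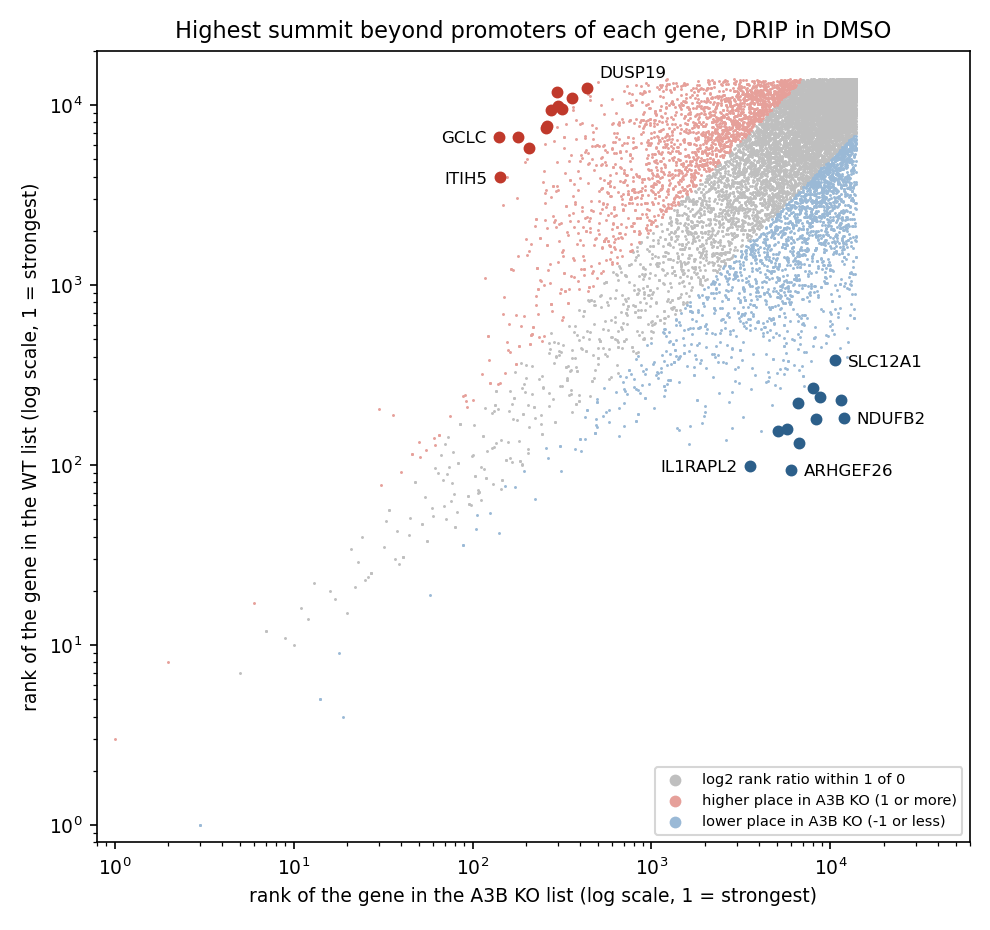
Rank of each gene by its highest summit beyond promoters, A3B KO on the x axis and WT on the y axis, both on log scales with 1 the strongest. Genes near the top of both lists (lower left) stay close together, 2153 genes (light red) hold a higher place in KO, 2105 (light blue) a lower one, and the large dots are the 12 largest gains and 12 largest losses within rank 1000.

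The 12 largest gains within rank 1000 ran from a log2 rank ratio of 4.79 to 5.56. GCLC, the catalytic subunit of the enzyme that starts glutathione synthesis, led them. It ranked 141 in KO and 6631 in WT, with a fold of 14.9 in KO and 5.91 in WT and a pileup of 103 (exact Poisson 95% interval 84.1 to 125) in KO and 50 (37.1 to 65.9) in WT. The summits were 11 bp apart and the pileup intervals did not overlap. The GCLC region lies 20 bp from the start of another annotated transcript and has a GC content of 75% in KO, and with regions near any annotated transcript start left out the ratio of the gene was -0.30. After PMA the ratio of GCLC was 0.20 at 2 h and -1.67 at 6 h.

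RBBP6, a ubiquitin ligase that binds the retinoblastoma protein, and DSE, the epimerase of dermatan sulfate, also had the same summit in both lists close to a further transcript start. RBBP6 had a pileup of 70 in KO and 40 in WT at 296 bp from a start in KO, with intervals that did not overlap. DSE had a pileup of 60 in KO and 41 in WT at 5 bp from a start in KO, with intervals that overlapped, and its ratio was -0.23 with regions near any start left out. TRIM13, a ubiquitin ligase of the endoplasmic reticulum, had the same summit at 5344 bp from the nearest start in KO, with a fold of 12.7 in KO and 6.19 in WT and a pileup of 49 in KO and 24 in WT. The KO region of TRIM13 also ranks DLEU2, the long noncoding RNA gene on the other strand, and without strand the genes cannot be told apart.

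The other gains came from a strong KO summit at a place where WT had none as high. NT5E, the surface enzyme CD73 that makes adenosine, ranked 358 in KO and 10950 in WT, with a fold of 10.9 in KO and 4.39 in WT at summits 30842 bp apart. Its KO region is 1629 bp from a transcript start, and the ratio was -0.093 with promoters widened to 5 kb and -0.11 with any start left out. ITIH5, a secreted protein that binds hyaluronan, had a fold of 14.7 in KO and 6.93 in WT, and its KO summit lay on a run of purines or pyrimidines of 210 bases. DUSP19, a dual-specificity phosphatase gene, had a pileup of 43 in KO and 14 in WT. RCOR3, a corepressor gene, had a fold of 13.4 in KO and 5.90 in WT, with pileups of 52 in KO and 31 in WT whose intervals overlapped, and its ratio was 0.51 with genes ranked by pileup. By that ranking the other 11 gains had ratios of 2.32 to 4.43, and with promoters of 5 kb the ratio of RBBP6 was 1.39. SMIM35, TMEM132B, the RNA gene RNF32-DT and the RNA gene LINC01517 had folds between 11.2 and 11.6 in KO and between 4.03 and 4.95 in WT.

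The 12 largest losses ran from -6.04 to -4.81. NDUFB2, a subunit of respiratory complex I, ranked 11936 in KO and 182 in WT. Its fold was 4.05 in KO and 13.4 in WT at the same summit, but its pileup was 32 (21.9 to 45.2) in KO and 53 (39.7 to 69.3) in WT, intervals that overlapped. PXYLP1, a phosphatase of proteoglycan synthesis, ranked 5697 in KO and 158 in WT. Its pileup was 46 (33.7 to 61.4) in KO and 79 (62.5 to 98.5) in WT at summits 9 bp apart, in the GC-rich intron stretch printed above, 12801 bp from the nearest transcript start in KO. LPCAT1, an acyltransferase of membrane and surfactant lipids, had a pileup of 38 in KO and 69 in WT, again at the same summit and with intervals apart. SH3BP5 and its antisense gene SH3BP5-AS1 share a region 171 bp from a transcript start in KO, with a pileup of 29 in KO and 58 in WT. SETD4 and CBR1, a carbonyl reductase gene, share a region with pileups of 40 in KO and 61 in WT, and RELL1 had 29 in KO and 48 in WT, both pairs with intervals that overlapped. The ratio of SETD4 and CBR1 was -0.33 with promoters widened to 5 kb, and that of SH3BP5 was -2.04. Ranked by pileup, the 12 losses had ratios of -4.34 to -1.90, with NDUFB2 at -2.52 and PXYLP1 at -2.07.

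EPCAM, the epithelial cell adhesion molecule, ranked 6651 in KO and 133 in WT, with a fold of 5.85 in KO and 15.3 in WT at summits 3802 bp apart. Its ratio was 3.90 after 2 h of PMA and -3.54 after 6 h, so that the direction at 2 h was the opposite of that in DMSO and at 6 h. ARHGEF26, a guanine nucleotide exchange factor gene, had a pileup of 23 in KO and 71 in WT, and IL1RAPL2, a gene of the interleukin-1 receptor family, had 27 in KO and 77 in WT, where the WT summit lay on a run of 213 bases. IL1RAPL2 ranked 41 in KO and 3219 in WT at 2 h of PMA, and 118 in KO and 11 in WT at 6 h, so that here too the order turned at 2 h and back at 6 h. TNN, a tenascin gene, SH3RF1, a scaffold ubiquitin ligase gene, and SLC12A1, a kidney ion transporter gene, had folds between 4.28 and 5.32 in KO and between 11.1 and 13.4 in WT, each at another place in the gene.

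**Figure D3:**
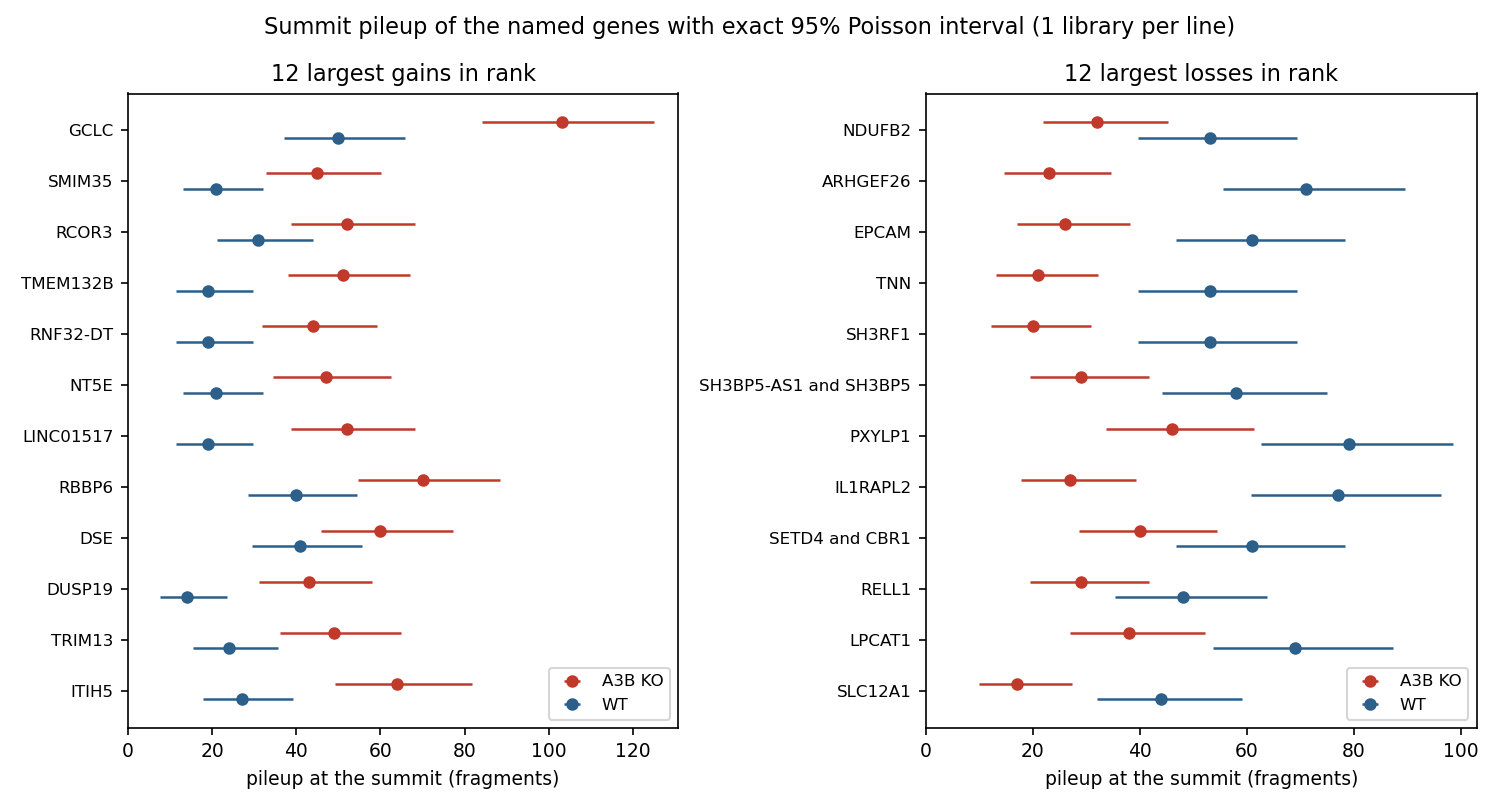
Pileup at the highest summit beyond promoters in A3B KO and WT for the 12 largest gains (left) and 12 largest losses (right) in rank, with exact Poisson 95% intervals for the count. Points come from 1 library per line. KO lies above WT in each gain and below it in each loss, the genes were chosen by fold, which is computed from the pileup, and the intervals overlap for RCOR3 and DSE on the left and for NDUFB2, SETD4 and CBR1, and RELL1 on the right.

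The number of regions in a gene was a second measure, at equal list lengths. A gene was counted past a difference of at least 5 regions with a ratio of at least 2. Of 18381 genes with a region in either list, 198 (1.08%) had more regions in KO and 234 (1.27%) had fewer. This balance followed the list length: with the full lists, of which KO is the longer, the counts were 248 more and 165 fewer, and with the first 20000 regions they were 23 more and 18 fewer. The totals of genes at these lengths are not given here, so only the balance can be read.

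MYHAS, a long noncoding RNA gene that runs through the skeletal myosin heavy chain cluster on chromosome 17, had 31 regions in KO and 2 in WT in DMSO. CNBD1, a gene with a cyclic nucleotide binding domain, had 28 in KO and 3 in WT, C11orf65 had 20 and 5, GOLGA8B, a golgin of a duplicated family, had 20 and 6, and FRMD4A, a scaffold of cell polarity, had 29 and 14. TUBA1B-AS1 with 48 and 27, RBM6, a splicing regulator, with 41 and 26, and SLC2A3, a glucose transporter, with 37 and 22 had a large surplus in KO at a ratio below 2. Each of these pairs gives KO first. UGT2B17, a steroid glucuronosyltransferase gene chosen after its values were seen, had 12 regions in KO and 0 in WT, against 1 and 0 at 2 h of PMA and 2 and 1 at 6 h. This gene lies in a known copy number variant of human genomes, and copy number was not tested.

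STAT3, a transcription factor of cytokine signaling, had 9 regions in KO and 27 in WT, and stayed lower in KO after PMA, with 19 against 28 at 2 h and 16 against 35 at 6 h. FBXL20, a ubiquitin ligase subunit gene, had 9 in KO and 27 in WT in DMSO, but 33 against 27 at 2 h and 41 against 43 at 6 h. SCAI, a suppressor of cell invasion, had 11 in KO and 25 in WT in DMSO, but 19 against 17 at 2 h and 30 against 24 at 6 h. CHFR, a mitotic checkpoint ligase gene with a ratio under 2, had 14 in KO and 27 in WT. PWRN1, a noncoding RNA gene of the Prader-Willi region, had 52 in KO and 72 in WT, then 46 against 68 at 2 h and 75 against 114 at 6 h. PVT1, the noncoding RNA neighbor of MYC, had 36 in KO and 52 in WT, NFIC had 28 and 43, and KLC1, a kinesin light chain, had 18 and 31. These differences changed with list length: with the first 50000 and the first 20000 regions the difference was 9 and 1 for MYHAS, 2 and 2 for CNBD1, and 4 and 0 for GOLGA8B. It was -8 and -1 for STAT3 and -9 and -1 for FBXL20. The direction of PVT1 turned with the first 50000 regions (a difference of 3), as did those of PWRN1 (3) and NFIC (1) with the first 20000.

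**Figure D4:**
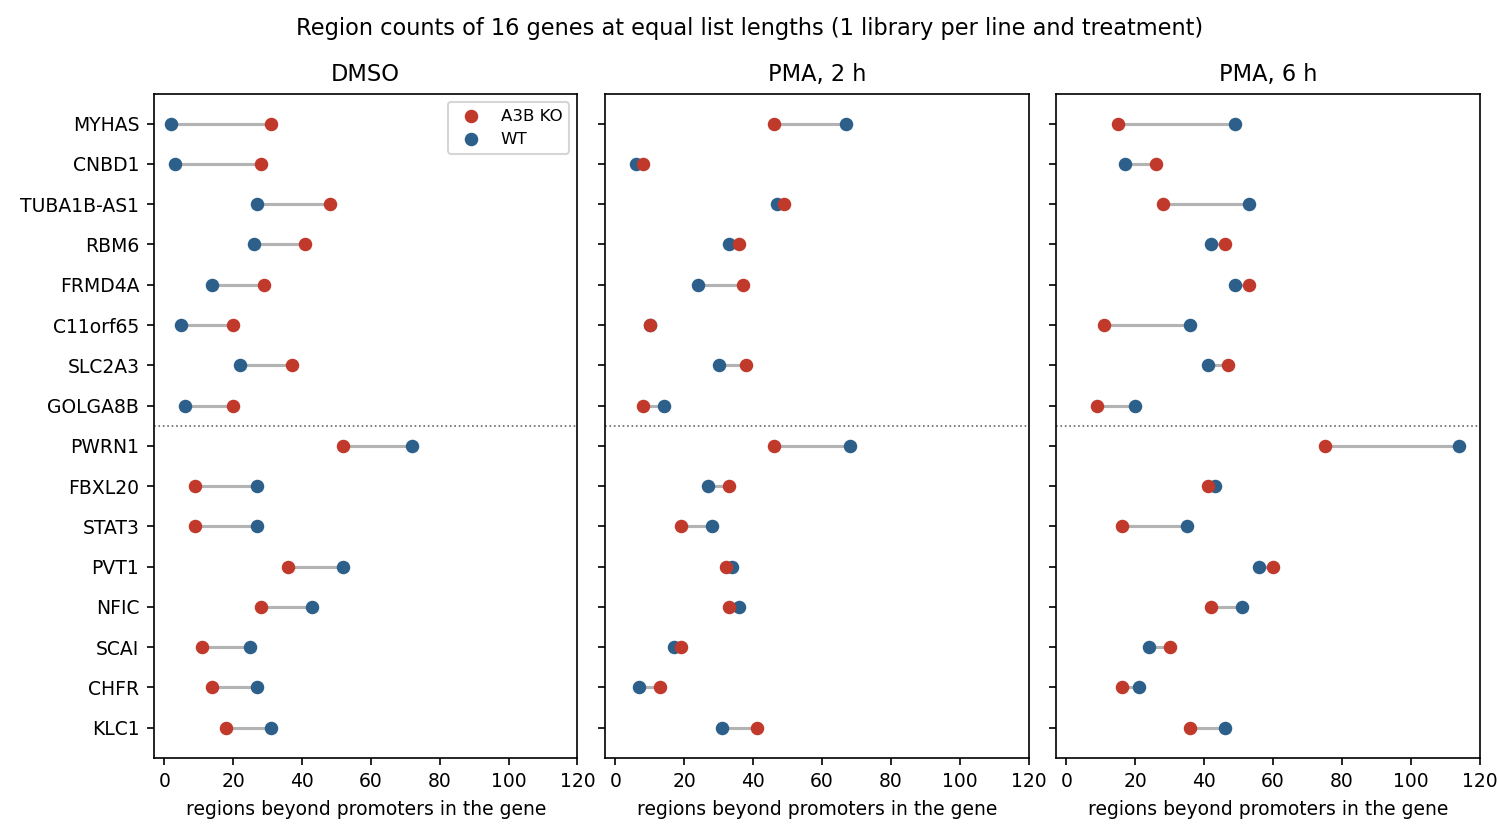
Number of regions beyond promoters in 16 genes, those with the largest surplus in A3B KO (above the dotted line) and in WT (below it) in DMSO, with the counts of the 2 h and 6 h PMA libraries beside them, each pair at equal list lengths. MYHAS has 31 regions in KO and 2 in WT in DMSO but 15 in KO and 49 in WT at 6 h of PMA, while STAT3 has fewer in KO in each pair.

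Counts along the genome showed the same places as blocks. Window counts took in all regions of the lists, promoters included. Of 22812 windows of 100 kb, 226 (0.991%) had more regions in KO and 229 (1%) had fewer. The split was 295 more and 152 fewer with the full lists, 111 more and 173 fewer with the first 50000, 29 more and 52 fewer with the first 20000, and 141 more and 211 fewer at a −log10 q of at least 5. The totals of windows under these settings are not given here, so the split alone can be read. On chromosome 15 the window 34400001 to 34500000 with GOLGA8A had 37 regions in KO and 7 in WT, and the next one with GOLGA8B had 31 in KO and 6 in WT. In PMA these windows went the other way, with 20 regions in KO and 76 in WT over both at 6 h. The myosin run on chromosome 17 (10300001 to 10600000) had 47 in KO and 7 in WT, and 22 in KO and 64 in WT at 6 h of PMA. On chromosome 6 the run with HLA-C, HLA-B and MICA, genes of antigen presentation and natural killer ligands, had 39 in KO and 13 in WT, then 30 against 20 at 2 h and 28 against 20 at 6 h.

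Among the windows with fewer regions in KO, the one with STAT5A and STAT3 had 11 in KO and 37 in WT, then 28 against 37 and 22 against 44 after PMA. Chromosome 21 from 7900001 to 8000000 had 5 in KO and 43 in WT, then 1 against 58 at 2 h and 17 against 19 at 6 h. The TBC1D3 family window on chromosome 17 had 1 in KO and 21 in WT in DMSO, then 16 against 30 at 2 h and 26 against 9 at 6 h, and the PSG3 and PSG8 window, of pregnancy glycoprotein genes, had 3 in KO and 22 in WT. The chromosome 21 window lies on the short arm of an acrocentric chromosome, which is rich in repeated sequence. Many of the other windows hold near-identical gene copies (GOLGA8, TBC1D3, PSG, NBPF), where reads can be placed on the wrong copy, so that their counts are uncertain.

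Among regions present in both lists the summits could be compared place by place. Of 43744 shared regions beyond promoters, 7372 (16.9%) held a place at least 1 log2 unit higher in KO and 9323 (21.3%) a place at least 1 log2 unit lower. These places are in the whole lists, so regions of 1 list alone also move them, and the imbalance is no measure of hybrid level. Of the shared regions also compared after PMA, 5264 of 28694 were higher and 6047 lower at 2 h. At 6 h the imbalance turned, with 7330 of 34266 higher and 5626 lower. At gene ends, where hybrids form as polymerase stops, 3322 genes had a region in both lists, 426 (12.8%) higher and 424 (12.8%) lower in KO. Unlike the shared regions, these genes were ranked among themselves in each list, so that near-equal shares were likely in advance. ID1, an inhibitor of differentiation that responds to BMP signals, ranked 11 in KO and 189 in WT. Its fold past the gene end was 30.4 in KO and 10.8 in WT, and its pileup was 153 (130 to 179) in KO and 94 (76.0 to 115) in WT, at summits 15 bp apart. After PMA the ranks were 14 in KO and 16 in WT at 2 h and 23 and 20 at 6 h, so that the gap seen in DMSO was not present in either PMA pair. The ID1 stretch printed above holds 10 runs of G and 2 of C.

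SUCLG1, a subunit of succinyl-CoA synthetase, ranked 1860 in KO and 106 in WT at its gene end, with a fold of 4.87 in KO and 12.8 in WT and a pileup of 30 (20.2 to 42.8) in KO and 60 (45.8 to 77.2) in WT. Its printed stretch holds 15 runs of G and 3 of C. Runs of G or C stood in 99.99% of KO and 100% of WT regions at gene ends, so holding them sets neither stretch apart. Ranked by pileup, the ratio was 2.30 for ID1 and -2.43 for SUCLG1. EIF4EBP3, a translation repressor that shares its end with the readthrough gene ANKHD1-EIF4EBP3, had a pileup of 72 in KO and 39 in WT. PCGF6, a Polycomb subunit gene, had a ratio of 3.26 in DMSO but -3.53 and -4.29 after PMA. ASH1L, a histone methyltransferase gene, and SF1, a splicing factor gene, had folds of 11.2 and 9.61 in KO and 5.23 and 3.89 in WT, and the ratio of SF1 was -0.77 with gene ends widened to 5 kb. Lower places in KO were held by CBR1, ZNF384, SAMD12 and EEF1G, an elongation factor subunit with a pileup of 23 in KO and 51 in WT.

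Outside genes, 12645 shared regions were compared, 2148 (17%) higher and 2748 (21.7%) lower in KO, again by place in the whole lists. The largest gains lay 2.64 kb from CRLF3, 5.06 kb from LARS1, 4.77 kb from ANP32B, 4.69 kb from ATF6-DT and 62.5 kb from PTER, with pileups of 33 to 57 in KO and 15 to 40 in WT. The pileup intervals of each of these 5 regions overlapped. The largest losses lay near PARG, S100A4, LATS2, MYO10 and PLPP7. The region 3.09 kb from S100A4, a calcium-binding protein gene in a cluster, had a fold of 3.39 in KO and 10.5 in WT and a pileup of 30 (20.2 to 42.8) in KO and 84 (67.0 to 104) in WT. Among the losses the intervals overlapped for the LATS2 region and did not for the other 4. Of the regions over 100 kb from a gene, the shared part was 40.3% of 2163 in KO and 47.2% of 1876 in WT.

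The strongest regions found in 1 list alone were looked at for what they are. Those of WT alone were 5 neighboring summits on chromosome 4 between 49128335 and 49143313, with folds of 57.9 to 105, inside a broad signal that KO also had, since the nearest KO summit was 523 to 1175 bp away. Of the 5 strongest of KO alone, 1 lay on chromosome 4 at 49125038, with the nearest WT summit 713 bp away. Another pair, at 8355074 and 8453030, lay on chromosome 21 in a span where KO had 95 summits and WT 93, with WT summits 1664 and 773 bp away. The chromosome 4 and chromosome 21 places are rich in repeated sequence, and where their reads were placed was not tested. The remaining KO regions lay in an intron of NKD1 and near SNX2. NKD1, a gene for an inhibitor of Wnt signaling, had a fold of 41.1 and a pileup of 206 (179 to 236) in KO, and the nearest WT region was 60378 bp away. In PMA the region was listed in KO at 6 h with a fold of 31.3 and in none of the other 3 lists. The region 6533 bp from SNX2, a sorting nexin gene, had a fold of 34.99 and a pileup of 189 in KO. It was absent in WT in DMSO, but after PMA it was listed with folds of 34.6 in KO and 35.8 in WT at 2 h and 28.6 in KO and 37.2 in WT at 6 h.

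Runs of at least 50 purines or pyrimidines, which the NKD1 region (183 bases) and the region near SNX2 (192 bases) carry, were counted over each list. They stood in 8.26% of the KO and 7.70% of the WT regions beyond promoters. Within the first 1000 entries they stood in 4 of 24 regions of KO alone (16.7%, Wilson 95% interval 6.68% to 35.9%) and in 26 of 476 shared KO regions (5.46%, 3.75% to 7.88%), and in 5 of 32 of WT alone (15.6%, 6.86% to 31.8%) and 27 of 504 shared WT regions (5.36%, 3.71% to 7.69%). Over the whole lists the order was the opposite, with runs in 7.42% of regions of KO alone and 6.25% of WT alone, against 8.96% (KO) and 8.89% (WT) of shared regions. Reads of simple repeats can be hard to place, and this was not tested.

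Base composition differed between the lists in a graded way. The median GC content was 44.2% in regions of KO alone, 45.4% in regions of WT alone and 46.2% in shared regions. By GC content of the region, the log2 of KO over WT regions was 0.36 below 35% GC (3535 in KO and 2749 in WT), 0.06 from 40% to 45%, -0.13 from 50% to 55% and -0.35 at 60% or more (1978 in KO and 2522 in WT). By chromosome the ratio was taken over all regions, promoters included. Among chromosomes, the lowest and highest ratios stood at high and low GC content, but the order between them was not that of GC content. Chromosome 4 (38.2% GC) had a log2 ratio of 0.15 and chromosome X of 0.13, while chromosome 19 (47.9% GC) had -0.16, chromosome 22 -0.15 and chromosome 17 -0.13. Chromosomes 5 and X (39.5% GC each) had 0.01 and 0.13, and chromosome 21 (40.9% GC) had -0.07. GC content thus moved with the difference between the libraries, and its part in the gene, window and chromosome counts was not tested. With windows of 1 Mb, 124 had more regions in KO and 12 had fewer. Their total is not given here, so no share can be read from this. With windows of 100 kb, 226 had more and 229 fewer of 22812. TCA and TGA, the trinucleotides that APOBEC3B prefers on either strand, had a median of 36 per kb in regions of KO alone and 36 in regions of WT alone. Runs of 3 or more G or C had a median of 22 per kb in regions of KO alone and 24 in those of WT alone.

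The PMA libraries share no sample with the DMSO pair and were used to see how far the order of genes came back. Among the genes within rank 1000 that were higher in KO in DMSO, 48.6% (Wilson 95% interval 44.4% to 52.8%) also stood higher in KO at 2 h and 50.8% (46.7% to 54.96%) at 6 h. Of those lower in KO in DMSO, 53.9% stood higher in KO at 2 h and 52.6% at 6 h. Over the genes within rank 1000 ranked in both DMSO lists the share was 52.3% at 2 h and 52.9% at 6 h, and the interval of each gained set held that share. The 6 h share depended on the ranking: by pileup in place of fold it was 64.1% for the gained genes, beside 59.6% for the genes within rank 1000. These intervals treat genes as independent, which they are not. Region counts were looked at in the same way. Of the genes with fewer regions in KO in DMSO, 40.5% (33.9% to 47.5%) of those not tied had more regions in KO at 2 h and 40.7% (34.2% to 47.4%) at 6 h, below the 50.6% and 53.1% over genes with a region. For genes with more regions in KO the shares were 52.1% and 51.1%.

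A small group of genes held the same direction past a ratio of 1 in each of the 3 pairs: 117 higher in KO (0.983%) and 85 lower (0.714%) of 11904 genes ranked throughout. The following were chosen after their values were seen, from those within rank 1000 in DMSO. NFKBIA, the inhibitor that holds NF-kB in the cytoplasm, ranked 290 in KO and 2287 in WT in DMSO, 45 and 1045 at 2 h, and 183 and 4977 at 6 h. LAMB3, a laminin chain of the basement membrane, ranked 909 in KO and 7621 in WT, then 119 and 1235, then 44 and 1868. ITGB1, the beta-1 integrin, ranked 345 in KO and 948 in WT, then 257 and 1724, then 82 and 4869. HMGA2, a chromatin protein gene, had ratios of 4.68, 2.73 and 1.86, and NT5E had 4.93, 2.44 and 6.34. In the other direction TNN had -5.63, -3.87 and -1.71, TACC2, a centrosome protein gene, had -4.13, -3.24 and -2.41, and MACROD2, a fragile site gene, had -4.47, -1.39 and -3.02. The pileups of NFKBIA in DMSO, 63 in KO and 48 in WT, had intervals that overlapped, as did those of LAMB3 (64 in KO and 41 in WT). The pileup of ITGB1 was 43 in KO and 46 in WT, the opposite order to its rank.

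Gene groups were described by counts beside the shares over all ranked genes (15.5% higher, 15.1% lower, median ratio 0.00). EGF receptor and MAP kinase genes had 17 ranked members, 7 higher and 0 lower in KO, with a median of 0.67. EGFR, the EGF receptor, ranked 3778 in KO and 8902 in WT, and SPRED2, an inhibitor of MAP kinase signaling, ranked 1487 in KO and 3493 in WT. Their pileups were 30 and 34 in KO and 21 and 35 in WT, with intervals that overlapped, and the list's median was -0.33 at 2 h and -0.05 at 6 h of PMA. By count the list had 94 regions in KO and 111 in WT. Basal epithelial markers had 15 ranked members, 4 higher and 5 lower, with a median of -0.66. KRT5, a basal keratin, ranked 1959 in KO and 188 in WT, and CDH3, P-cadherin, ranked 5854 in KO and 803 in WT. The laminin chain genes LAMB3 (909 in KO and 7621 in WT) and LAMA3 (1849 in KO and 8927 in WT) went the other way, and the list's median was -0.18 at 2 h and 0.35 at 6 h of PMA. The DMSO pileup intervals of KRT5, CDH3, LAMB3 and LAMA3 overlapped.

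R-loop regulators, the helicases, nucleases and splicing factors that limit hybrids, had 19 ranked members, 3 higher (FANCM, SRSF1 and DDX5) and 0 lower in KO, with a median of 0.17, and of 0.26 at 2 h and 0.05 at 6 h of PMA. The DMSO pileup intervals of FANCM, SRSF1 and DDX5 overlapped. Common fragile site genes had 20 ranked members, 4 higher and 5 lower, and 360 regions in KO against 309 in WT. CDH13, a cadherin gene of that list chosen after its values were seen, had 26 regions in KO and 12 in WT. Interferon-stimulated genes had 6 ranked members, 0 higher and 3 lower (IFIT3, RIGI and OAS3), with a median of -0.81. After PMA the median was 0.67 at 2 h and -0.52 at 6 h, and IFIT3 had ratios of 0.67 and 1.07. The DMSO pileup intervals of IFIT3, RIGI and OAS3 overlapped. Of 70 replication-dependent histone genes, which are short and lie almost whole within promoters, 7 had a region beyond promoters, and the 4 ranked had ratios below 0, the largest -1.26 for H4C15. Nuclear and oncogenic RNA genes had 18 ranked members, 5 higher and 3 lower. Among them LINC-PINT ranked 332 in KO and 2728 in WT, but its pileup was 48 in KO and 47 in WT.

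The genes singled out by the authors for this contrast were looked up as well. GADD45A, PHLDA1, H1-5 and H1-4 had 0 regions beyond promoters in either list. H1-5 and H1-4 are so short that they lie wholly within the promoter limit, so for them 0 follows from the definition. Most of GADD45A lies within that limit as well. Promoter regions were left out here, so these counts cannot show whether the genes had signal at their starts. SYT8, a synaptotagmin gene, ranked 98 in KO and 60 in WT, with a fold of 17.5 in KO and 22.2 in WT and a pileup of 111 in KO and 171 in WT at summits 15 bp apart, with intervals that did not overlap. DDX1, an RNA helicase gene, ranked 13136 in KO and 10007 in WT. Neither SYT8, shown as decreased, nor DDX1, shown as unchanged, passed a ratio of 1. The authors used other measures, differential peak calling and qPCR of DRIP material, for which this rank limit does not stand in. By fold and by pileup SYT8 was lower in KO, the direction the paper shows.

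The overlap with A3B itself was read from anti-GFP regions of a line with doxycycline-induced A3B-eGFP (5945 regions), a different line from those compared here. Such a region overlapped 0.869% of the regions of KO alone (Wilson 95% interval 0.779% to 0.970%), 1.04% of those of WT alone (0.943% to 1.15%) and 2.90% of the shared ones in KO (2.75% to 3.06%). Without doxycycline (4040 regions) the shares were 0.618%, 0.890% and 1.92%. The regions found in 1 list alone were thus overlapped less than shared ones in the list with doxycycline and in the list without it.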

How the data were processed

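Sequencing reads were processed by the authors, who list cutadapt 1.13, STAR 2.6.1d, SAMtools 1.3.1, Picard, bedtools 2.29.2, deepTools 2.5.0.1 and MACS2 (2.2.6 in the submitters' notes), with hg38 as the genome build. Peaks were called per library against input. The deposited lists give, for every summit, the pileup (the signal over the summit base), the −log10 p and −log10 q values and the fold enrichment ratio over local background, all as MACS2 wrote them. The methods name paired-end calling with another MACS2 version, while the peak names carry an extension size, so whether a pileup counts fragments or extended reads is not settled, and with it what the Poisson intervals count. Read totals were not used here, so depth is unknown, and intervals (Wilson for shares, exact Poisson for pileups, 95%) cover counting error alone. A region is a window of 500 bp around a summit. Mitochondrial entries (9 in KO and 13 in WT) were left out. Lists were ranked by fold and shortened to 91894 regions. Genes were those of GENCODE release 44, protein-coding or long noncoding, and a region counted as shared from 1 bp of overlap.

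No test was possible with 1 library per group, so a gene was counted as higher or lower at a log2 rank ratio of 1 or more in size. By rule the text names, from genes within rank 1000, the 12 that gained most places and the 12 that lost most, the 8 largest differences in region number each way, the 5 strongest regions of each list alone, the 5 that gained and the 5 that lost most at gene ends and outside genes within rank 5000, up to 4 members of each of 25 gene lists with the largest changes, the APOBEC3 genes and those the authors show for this contrast. Some genes and sequences are not reported here. Genes outside this rule are said in the text to be chosen by their values. The regions and lists were chosen with earlier results of these data known. The anti-GFP lists in DMSO were used for overlap alone, and the one with PMA was not used. Alternatives changed the ranking value, list length, promoter, gene end and window size. Scripts used Python 3.11.15, pandas 2.3.3, scipy 1.17.1 and pysam 0.24.0 and were tested on simulated lists.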

Additional observations from a re-analysis of the deposited data

Results flagged for a closer look

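The difference between the lines in DMSO was opposite to that in both PMA pairs by at least 5 regions in each pair for 2 of 32 genes looked at by region number, and by a log2 rank ratio of at least 1 in size in each pair for 1 of 24 looked at by rank. Smaller opposite differences, such as those of SCAI and LINC01320, were not counted. MYHAS had 29 more regions in KO than in WT in DMSO, and a KO minus WT difference of -21 at 2 h and -34 at 6 h of PMA. GOLGA8B had 14 more in KO in DMSO, and differences of -6 and -11 after PMA. With the first 20000 regions of each DMSO list the differences were 1 and 0. RCOR3 had a log2 rank ratio of 5.22 in DMSO, and ratios of -1.06 and -1.21 after PMA, and its DMSO ratio was 0.51 with genes ranked by pileup. With 1 library per line and treatment, these differences between treatments were not tested.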

How the results depend on the processing

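No paired analysis was possible because each group held 1 library, and for the same reason no library could be left out. Of 133 alternative values of the main counts and shares, 81 stayed near the reported value (for counts, within 1.5 times) and 52 moved. This sorting had no label for a reversal and could not show one. The balance of gene counts, 198 more and 234 fewer in KO, turned to 248 and 165 with the full lists. It turned as well with the first 20000 regions (23 and 18), but not with the first 50000 (85 and 93). With the first 50000 regions, 43236 KO and 43126 WT regions lay beyond promoters, 22817 in KO alone and 22716 in WT alone, 85 genes had more and 93 fewer regions in KO, 4078 shared regions were higher and 4649 lower, and 111 windows had more. With the first 20000 these values were 16679 and 16693, 10179 and 10209, 23 and 18, 1369 and 1404, and 29 windows had more and 52 fewer, while 857 genes ranked higher and 822 lower in KO. At a −log10 q of at least 5, 125 genes had more and 145 fewer regions, 6155 shared regions were lower and 141 windows had more. With the full lists 152 windows had fewer. Windows of 1 Mb gave 124 with more and 12 with fewer, without a share, since their total is not given here. Gene ends counted 242 higher and 235 lower within 1 kb, and 829 and 835 within 5 kb. Over 10 kb from a gene, 1238 regions were higher and 1578 lower. The numbers of genes, gene ends, windows and shared regions compared change with these settings and are not given here. No share can therefore be read from the counts higher, lower, more or fewer, only their balance.

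Restrictions chosen after seeing the data left 905 genes higher and 890 lower where the highest regions overlap, and 70 and 127 where the pileup intervals do not. The median GC content was 44.4% in KO alone and 45.2% in WT alone with the first 50000 regions, 44.8% in KO alone with the first 20000, 44.4% and 45.6% at the −log10 q limit, and 45.2% in WT alone with the full lists. The share of gained genes within rank 1000 that stood higher in KO after PMA was 53.9% at 2 h by −log10 q, and 55.6% at 2 h and 64.1% at 6 h by pileup, beside 55.7% (−log10 q) and 59.6% (pileup) of ranked genes at 6 h. With the first 20000 regions, anti-GFP regions overlapped 1.67% of KO alone, 1.53% of WT alone and 8.09% of shared regions.

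Single genes that reversed were PVT1 (a difference of 3 regions, first 50000), PWRN1 (3) and NFIC (1, first 20000), NT5E (-0.093 with promoters of 5 kb, -0.11 with any transcript start), GCLC (-0.30) and DSE (-0.23, any transcript start), and the gene end of SF1 (-0.77, within 5 kb). The cause was not tested. Of 196 values for genes named by rank, 190 kept their direction and stayed past a ratio of 1, though often at a much smaller size (NDUFB2 -2.52 and PXYLP1 -2.07 by pileup), and RCOR3 (0.51, by pileup) and SETD4 and CBR1 (-0.33, promoters of 5 kb) fell below it. A gene no longer ranked in both lists under a setting gave no value and is not among the 196. This was so for NDUFB2 and TNN with the first 50000 and the first 20000 regions. Of 144 values by count, 106 stayed within 1.5 times. What depth limits was not tested, since read totals were not used.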

Other observations

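Cytosolic ribosomal protein genes had 57 ranked members, 15 higher and 8 lower in KO (15.5% and 15.1% over all ranked genes), with a median log2 rank ratio of 0.19, which was -0.17 with promoters of 5 kb, and 200 regions in KO against 197 in WT. RPS25 ranked 150 in KO and 856 in WT, and RPL11 ranked 10698 in KO and 1503 in WT, both with pileup intervals that overlapped. Small nucleolar RNA host genes had 15 ranked members, 1 higher and 1 lower, and immediate early genes had 9 ranked members, 0 past the ratio in either direction. ZFP36L1, an RNA-binding protein gene that promotes mRNA decay, ranked 21 in KO and 34 in WT.

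The peaks with the most summits stood at the same places in both lists. The one with the most summits, over RASA4B, POLR2J3 and SPDYE2 on chromosome 7, held 117 summits in KO and 130 in WT, and the one at NPIPB11 on chromosome 16 held 95 in KO and 87 in WT. These places hold near-identical gene copies, and where their reads were placed was not tested. The highest mitochondrial pileup was 19156 in KO and 27127 in WT.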
